A study of Mus musculus with 4 samples.

Results

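The cells described here are lung endothelial cells (ECs) chosen by 6 markers, of which Apln and Angpt2 are genes of activated, sprouting endothelium. A cell entered the endothelial gate when the summed unique molecular identifiers (UMIs, each marking 1 captured RNA molecule) of Cdh5, Cldn5, Egfl7, Ramp2 and Calcrl reached 4, when it held 0 UMIs of the leukocyte gene Ptprc, and when fewer than 3 of the aerocyte genes Ednrb, Car4, Fibin, Tbx2 and Chst1 were detected. Gated cells with at least 2 of the 6 markers Apln, Angpt2, Tnfrsf11b, F8, Gja1 and Pcdh17 are called marker-positive, and gated cells with none of the 6 are called marker-negative. By this rule 494 of 3116 gated ECs, out of 9363 cells in the series, were marker-positive, 1141 were marker-negative and 1481 held 1 marker. The members were chosen by their measured UMIs, so the 6 markers are described without a test.

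The libraries came from whole lungs of 4 mice on a C57/BL6 background. The 2 WT mice carried ERG fl/fl, that is floxed Erg alleles without Cre, and the 2 ERG CKO mice carried CDH5-CreER(T):ERG fl/fl, in which a Cre recombinase driven by the endothelial Cdh5 promoter is activated by tamoxifen. Both groups received 5 daily injections of 0.5 mg tamoxifen, and the lungs were taken 90 days later; the age of these mice is not given in the sources used here. In the order WT replicate 1, WT replicate 2, ERG CKO replicate 1 and ERG CKO replicate 2, the libraries held 2264, 2150, 3097 and 1852 cells and between 11263911 and 18646776 UMIs, and the members numbered 62, 66, 217 and 149. The 2 replicates of a group differed by more than counting noise, with a chi-square per degree of freedom of at least 4.44 in the summed counts of the members. Across libraries 7 barcodes were shared, and 3 members carried one of them. Each group holds 2 mice, so every p-value rests on the spread between 2 libraries.

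Endothelium that is about to sprout is known to express Angpt2, which encodes a ligand that antagonizes angiopoietin 1 at the receptor Tek, and Apln, which encodes the ligand of the receptor Aplnr. General capillary cells (gCap ECs), the progenitor-like cells of the alveolar capillary, normally carry the receptors of both ligands, whereas aerocytes (aCap ECs) are large cells specialized for gas exchange. Apln is itself expressed in aerocytes of the healthy lung, which is why the gate left out cells with several aerocyte genes. Tnfrsf11b encodes osteoprotegerin, a decoy receptor, F8 encodes coagulation factor VIII, Gja1 encodes a gap junction connexin, and Pcdh17 encodes a protocadherin.

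Other cell types were present in some member barcodes, and this has to be known before the values. A cell was called mixed when it held at least 10 UMIs of the markers of fibroblasts, mural cells, mesothelium, platelets, myeloid or lymphoid cells, or at least 100 UMIs of the epithelial markers. Mixed cells numbered 22 of 62 and 11 of 66 among WT members, against 49 of 217 and 17 of 149 among ERG CKO members. In WT replicate 1 they carried mostly mural (14 cells) and fibroblast (13 cells) UMIs, whereas in ERG CKO they carried mostly platelet UMIs (37 and 14 cells). A single member of WT replicate 2, with 235523 UMIs, held 36.2% of all UMIs of the members of that library. Scrublet called 60 of all cells doublets (0.641%) and none of the members among them. The shares, the comparison with marker-negative cells and the genotype fits are therefore given for all members and without the mixed cells, an alternative chosen after the data were seen, which left 40, 55, 168 and 132 members.

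**Figure D1:**
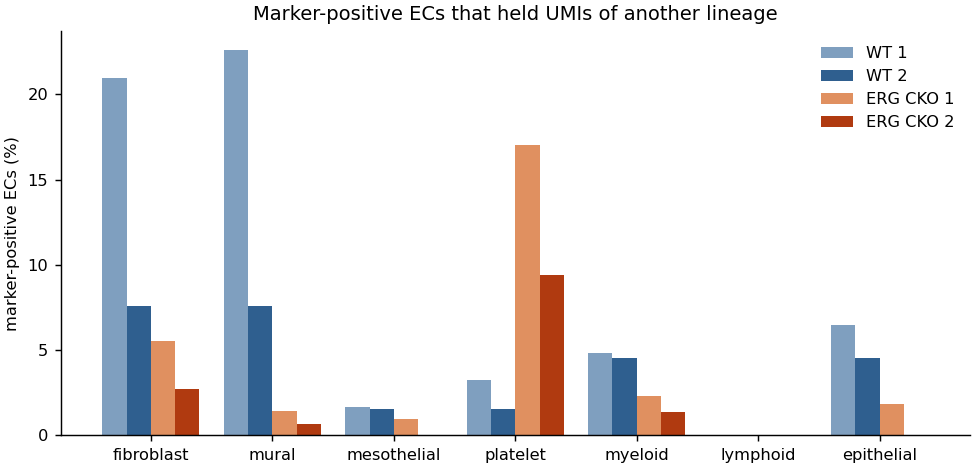
Share of marker-positive ECs (%, y axis) that held UMIs of each other lineage above the limit, with 1 bar per library and no error bars because each bar is 1 library. Mural and fibroblast UMIs were most frequent in WT replicate 1 and platelet UMIs in ERG CKO replicate 1 (37 of 217 cells).

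Members made up a larger share of the gated ECs in both ERG CKO libraries than in both WT libraries. The share was 8.04% (95% Wilson interval 6.32 to 10.2) and 8.47% (6.71 to 10.6) in the WT libraries, against 21.4% (18.9 to 24.0) and 27.1% (23.5 to 31.0) in the ERG CKO libraries; the intervals cover counting error only. The means were 8.26% ± 0.305 (SD, n = 2) and 24.2% ± 4.05 (SD, n = 2), and the groups did not overlap. The share is set by the markers of the rule, so no test is given. Without the mixed cells the shares were 5.81% and 7.75% for WT against 19.8% and 25.7% for ERG CKO. The share of gated ECs alone cannot tell a larger number of these cells from a smaller number of other ECs. Measured against every cell of the library, the members reached 2.74% and 3.07% for the WT mice, against 7.01% and 8.05% for the ERG CKO mice. A whole-lung suspension gives shares and not cell numbers per lung, so a change in either number was not tested.

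The number of markers separated the genotypes further. At least 1 marker was detected in 60.8% and 66.5% of gated WT ECs and in 61.5% and 66.0% of gated ERG CKO ECs, and here the groups overlapped. At least 3 markers were detected in 1.30% and 0.642% of WT cells against 10.1% and 11.3% of ERG CKO cells. No WT cell held 5 or 6 markers, whereas 5 markers were detected in 18 and 6 cells and all 6 markers in 9 and 8 cells of the ERG CKO libraries. Depth per cell bears on any count of detected genes. The median UMIs per cell were 5820.5 and 5254.5 in WT members, 5686 and 4600 in ERG CKO members, and between 1373 and 2942 in marker-negative cells of the 4 libraries. After every cell was thinned to 2000 UMIs, at least 2 markers were detected in 3.42% and 3.17% of WT cells against 16.1% and 19.7% of ERG CKO cells, and at least 3 markers in 0.167% and 0.289% against 6.86% and 8.23%.

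**Figure D2:**
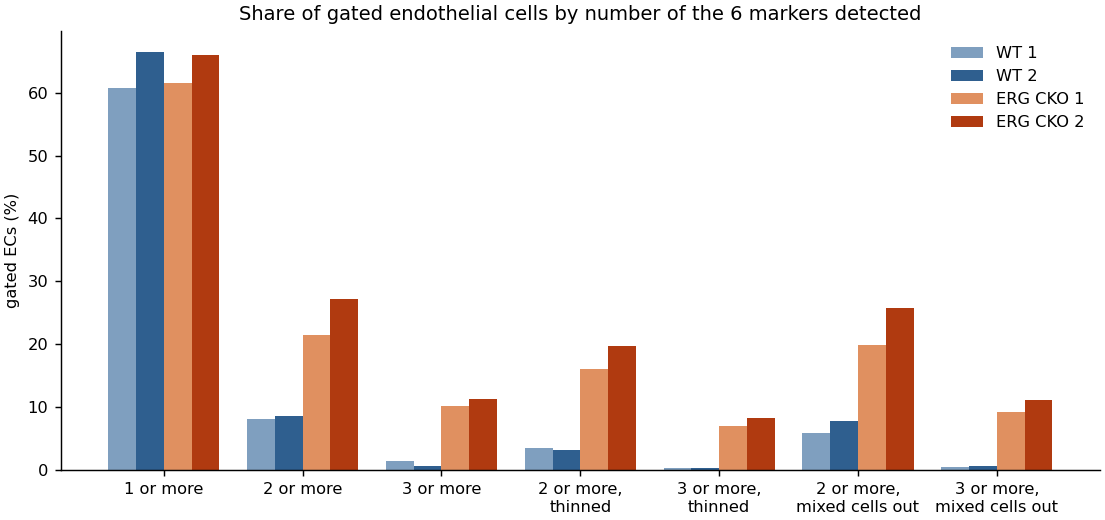
Share of gated ECs (%, y axis) that held at least 1, 2 or 3 of the 6 markers, as deposited, after thinning to 2000 UMIs and without mixed cells, with 1 bar per library. The libraries overlapped at 1 marker, and at 3 markers the WT bars lay at 1.30% or below and the ERG CKO bars at 10.1% or above.

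Among the 6 markers, Pcdh17 behaved as a broad endothelial gene. It was detected in 56.5% and 62.1% of all gated WT ECs and in 55.6% and 59.8% of gated ERG CKO ECs, and in 96.6% to 97.0% of the members of each library. Most WT members therefore held Pcdh17 and 1 other marker. The pair of Angpt2 and Pcdh17 alone accounted for 29 of 62 and 44 of 66 WT members, and for 53 of 217 and 54 of 149 ERG CKO members. Some members held neither Apln nor Angpt2. For example, F8 and Pcdh17 alone were detected in 7 and 4 WT members and in 31 and 13 ERG CKO members. With Pcdh17 left out and at least 2 of the other markers required, the share was 1.56% and 0.899% for WT against 10.7% and 12.0% for ERG CKO. Cells just inside the rule, with exactly 2 markers, held Angpt2 at 84.3, 91.5, 116 and 192 CPM (UMIs of the gene scaled to 1e6 UMIs of the class) in the order of the libraries above. Cells just outside it, with exactly 1 marker, held Angpt2 at 11.3, 11.6, 14.4 and 25.1 CPM. In 86.4% to 92.9% of these cells that marker was Pcdh17. Angpt2 is part of the rule, so this contrast is set by the rule.

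The ligands stood at higher levels in all gated ECs of ERG CKO lungs. Apln was measured at 7.15 and 3.54 CPM in WT and at 60.5 and 71.3 CPM in ERG CKO. Angpt2 was measured at 22.6 and 25.3 CPM in WT and at 65.9 and 112 CPM in ERG CKO. For both ligands each ERG CKO library lay above each WT library. Apln was detected in 14 and 12 gated WT cells, with at most 5 UMIs in a cell, and in 65 and 33 gated ERG CKO cells, with up to 15 and 25 UMIs in a cell. Leukocytes, which should lack both genes, held at most 0.404 CPM of Apln and 1.05 CPM of Angpt2 in any library at a median of at least 5380 UMIs per cell.

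The other markers showed the same order of the groups. Tnfrsf11b stood at 3.87 and 0.884 CPM in WT and at 30.2 and 61.8 CPM in ERG CKO. F8 stood at 5.66 and 3.54 CPM in WT and at 74.9 and 55.1 CPM in ERG CKO. Gja1 stood at 17.0 and 14.1 CPM in WT and at 47.5 and 37.0 CPM in ERG CKO. Pcdh17 stood at 312 and 331 CPM in WT and at 457 and 553 CPM in ERG CKO, the smallest ratio of the 6. None of these groups overlapped, and the genes were part of the rule.

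**Figure D3:**
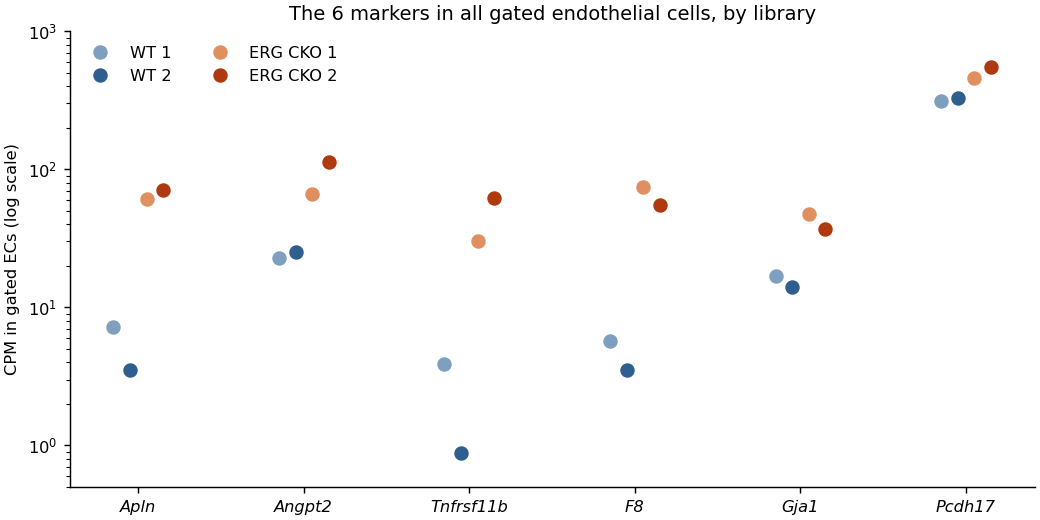
CPM (y axis, log scale) of the 6 markers in all gated ECs, with 1 point per library. For each gene both ERG CKO points lie above both WT points, from Apln (7.15 and 3.54 against 60.5 and 71.3 CPM) to Pcdh17 (312 and 331 against 457 and 553 CPM).

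Apln was found together with the other markers in a larger share of cells in both ERG CKO libraries than in both WT libraries. Of the gated cells with Apln, Angpt2 was detected in 1 of 14 and 3 of 12 WT cells against 39 of 65 and 24 of 33 ERG CKO cells. Angpt2 was detected in 13.1% and 19.7% of the ERG CKO cells without Apln. Tnfrsf11b was detected in 0 of 14 and 0 of 12 WT cells with Apln against 28 of 65 and 20 of 33 such ERG CKO cells. F8 was likewise detected in none of these WT cells and in 32 of 65 and 17 of 33 ERG CKO cells. Pairs without Apln had the same order of the groups except Gja1 among cells with F8, which was detected in 30.8% and 0% of WT cells against 34.9% and 29.6% of ERG CKO cells. The WT counts are small, and the cells of 1 library share their mouse, so no test was made. ERG CKO cells with Apln had median UMIs of 5331 and 4502, against 3831 and 3609 in the cells without it, and the part of depth in these shares was not tested.

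The members held gCap genes, at a lower summed level than marker-negative cells when mixed cells were kept. At least 2 of the 12 gCap genes in the matrix were detected in 62 of 62, 65 of 66, 214 of 217 and 144 of 149 members. In marker-negative cells the shares were 98.7%, 96.9%, 89.5% and 93.6%. The gate already required endothelial UMIs, so these shares do not test the endothelial label. The summed level of the gCap list was 7022 and 5786 CPM in WT members and 5735 and 6585 CPM in ERG CKO members, below the 8252 to 11088 CPM of marker-negative cells of the 4 libraries. The median log2 fold of 10 gCap genes over marker-negative cells was -0.64 with all cells, against -0.078 over all genes, and -0.38 without mixed cells and cells under 2000 UMIs, where none of the 10 was 2-fold lower in every library. At least 2 of 12 lymphatic genes were detected in 32, 26, 87 and 35 members, that is 51.6%, 39.4%, 40.1% and 23.5%, against 8.56% to 16.9% of the shallower marker-negative cells. Of the defining lymphatic genes Prox1 and Mmrn1, Mmrn1 was measured in members without the mixed cells at 346 and 39.7 CPM in WT and 63.4 and 0 CPM in ERG CKO. Without cells that held Prox1 or Mmrn1, members made up 7.67% and 8.38% of gated cells for WT against 20.6% and 26.7% for ERG CKO. When cells with 2 genes of the whole lymphatic list were left out, the share was 5.01% and 6.60% against 17.0% and 24.4%. At least 2 of 13 cell cycle genes were detected in 35.6% to 51.6% of the members of each library against 17.1% to 20.3% of marker-negative cells, and after thinning to 2000 UMIs in 11.6% to 14.8% against 12.1% to 14.3%. Mki67, a gene of dividing cells, was at 29.6 and 1.54 CPM in WT members and at 21.9 and 0 CPM in ERG CKO members.

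Genes outside the rule were then compared between members and marker-negative cells of the same library. This contrast was used to choose the members, so it is a description with no p-value, and folds are on the log2 scale of CPM plus 20 in genes with a mean of at least 20 CPM. Of 6523 genes, 2 were at least 2-fold higher (0.0307%) and 6 at least 2-fold lower (0.092%) in the members of all 4 libraries. The higher ones were Fabp5, a fatty acid binding protein, with a mean log2 fold of 1.79 ± 0.53 (SD, n = 4), and Cp, which encodes ceruloplasmin, with 1.34 ± 0.23. The lower ones were the platelet genes Ppbp, Pf4 and Nrgn, the chemokine gene Cxcl12, the capillary surface gene Ly6c1 and Sema3c, with mean log2 folds between -2.09 and -1.21. Platelet UMIs moved with this result, since mixed cells were also present among marker-negative cells, in 20, 21, 60 and 11 of them.

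Without mixed cells and without cells under 2000 UMIs, 3 of 6502 genes were at least 2-fold higher (0.0461%) and 0 were at least 2-fold lower (0%) in all 4 libraries. They were Esm1, Ctgf and Tgfb2. Esm1, which encodes endocan and marks tip cells of sprouts, stood at 88.7, 156, 54.3 and 60.9 CPM in the members and at 12.0, 3.32, 0 and 3.35 CPM in marker-negative cells. Ctgf, a matricellular growth factor gene, had a mean log2 fold of 2.26 ± 0.50 (SD, n = 4), and Tgfb2, a transforming growth factor ligand gene, one of 1.45 ± 0.24. Esm1 was higher in the members of every library, including both WT libraries. Over all genes compared the median log2 fold was 0.0045. Each class was scaled to the same total, so this value does not test for a shift between the classes.

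Cells with at least 3 markers were compared with marker-negative cells in the ERG CKO libraries. Without mixed cells and cells under 2000 UMIs, 75 and 51 such cells were compared with 126 and 71 marker-negative cells, and 117 of 6562 genes were at least 2-fold higher in both libraries (1.78%) and 104 at least 2-fold lower. The WT libraries held only 2 and 4 such cells and were not used here. Spry1, a feedback inhibitor of growth factor signalling, went from 20.2 to 485 CPM and from 33.5 to 291 CPM between cells with no marker and cells with 3 or more. F2r, the thrombin receptor gene, went from 12.9 to 193 CPM and from 10.04 to 172 CPM. Igfbp3, which binds insulin-like growth factors, went from 5.51 to 169 CPM and from 0 to 89.8 CPM. Col13a1 went from 1.84 to 167 CPM and from 0 to 57.5 CPM. These values describe cells that were selected by the markers, and no test was made.

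The levels of Cd34, Gpihbp1 and Lpl differed step by step with the number of markers in ERG CKO, with a smaller range over 0 to 2 markers in WT. Cd34, a sialomucin of endothelial and progenitor cells, stood at 130, 197, 425 and 921 CPM in ERG CKO replicate 1 cells with 0, 1, 2 and at least 3 markers, and at 194, 265, 411 and 963 CPM in replicate 2. In WT it stood at 137, 131 and 156 CPM in replicate 1 and at 87.9, 99.7 and 138 CPM in replicate 2 at 0, 1 and 2 markers. Gpihbp1, which carries lipoprotein lipase to the capillary lumen and is a gCap gene, went the other way, from 1511 to 1297, 585 and 184 CPM in ERG CKO replicate 1 and from 1379 to 1287, 742 and 223 CPM in replicate 2. In WT Gpihbp1 lay between 1607 and 1765 CPM in the cells with 0, 1 or 2 markers of both libraries. The lipase gene Lpl went from 711 to 84.7 CPM and from 743 to 86.2 CPM over the same ERG CKO cells. Esm1 went from 12.0 to 94.6 CPM and from 3.32 to 154 CPM between 0 and 2 markers in WT, and in ERG CKO it reached 99.5 and 111 CPM at 3 or more markers.

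**Figure D4:**
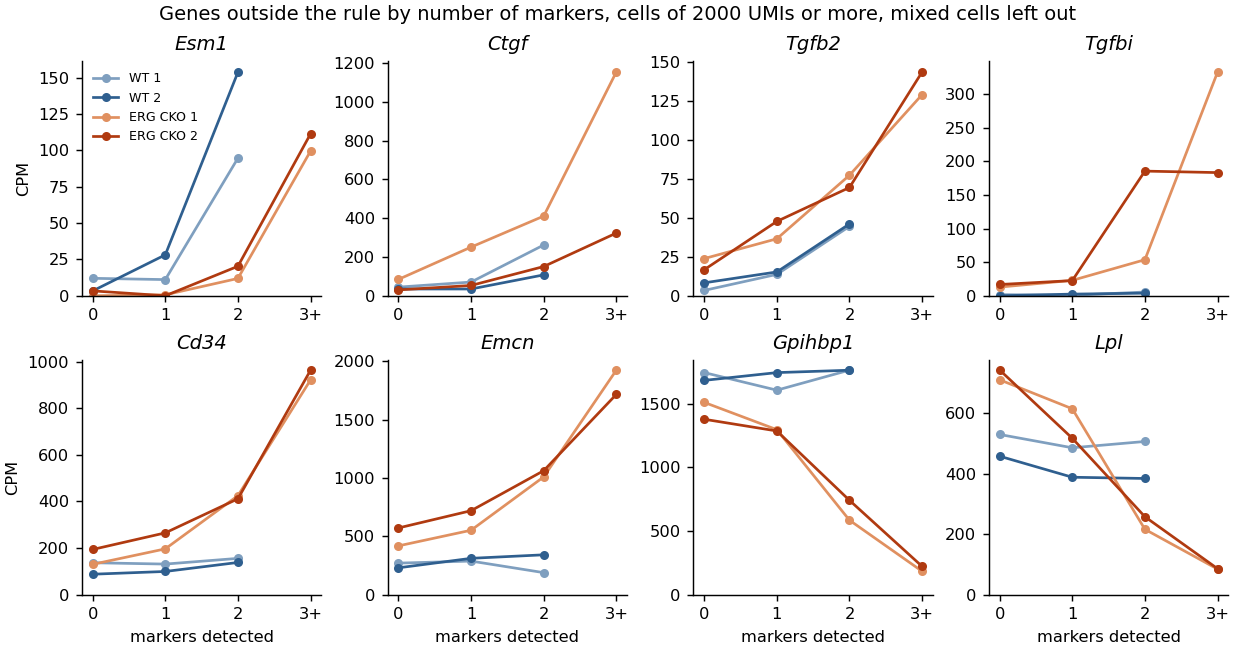
CPM (y axis, linear) of 8 genes outside the rule against the number of markers detected per cell (x axis), with 1 line per library, cells of at least 2000 UMIs and mixed cells left out. WT cells with 3 or more markers (2 and 4 cells) are not drawn; in ERG CKO, Cd34 and Emcn are higher and Gpihbp1 and Lpl lower at each further marker.

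The genotypes were compared within the members from counts summed per library with edgeR's quasi-likelihood test. Erg itself did not differ, at 90.4 and 66.1 CPM in WT and 117 and 92.1 CPM in ERG CKO (log2 fold change 0.15 ± 0.23 SE, adjusted p = 0.82); whether the counted reads lie in the deleted part of the gene is not known, so this level does not check the deletion. With all members, 274 of 8119 genes passed an adjusted p of 0.05 and count as called (3.37%), 95 higher and 179 lower in ERG CKO. Without mixed cells, 278 of 6646 were called (4.18%), 123 higher (1.85%) and 155 lower (2.33%). The calls include 4 and 3 markers of the rule, all higher, which chose the members and support nothing here. Both fits called 82 genes, which is 29.9% of the first set and 29.5% of the second, and 80 of them in the same direction; Scd1 and Prnp were called lower with all members and higher without mixed cells. Single libraries moved these counts: with all members 144 and 114 genes were called without WT replicates 1 and 2 and 657 and 494 without the ERG CKO ones, and with mixed cells left out 3 and 129 when the first or the second ERG CKO library was dropped. As given above, the genotypes also differ in which markers their members held.

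The genes with the lowest values in ERG CKO members were genes of the airway epithelium. Scgb1a1, the secretoglobin of club cells, was measured at 56004 and 183678 CPM in WT members and at 133 and 37.6 CPM in ERG CKO members. Scgb3a2, Retnla, Pon1, Smim6, Chad, Cyp2f2, Hp and Gdpd2 were also among the lowest. Without mixed cells Scgb1a1 stood at 181 and 97.5 CPM against 130 and 24.7 CPM (adjusted p = 0.54), and the others named here were too low to be tested. Of the 10 epithelial markers, 4 were called lower with all members, and 0 of the 3 that could be tested without mixed cells. Platelet genes went the other way: 6 of 8 were called higher in ERG CKO with all members, Gp1bb among them, and 1 of 2, Nrgn, without mixed cells. The share called over all genes was 3.37% with all members and 4.18% without mixed cells.

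Tgfbi, Igf1, Nos2, Fndc1 and Ildr2 were called higher in ERG CKO members both with and without mixed cells. Tgfbi kept its call under all 20 alternatives, and each of the other genes named here lost it under some. Tgfbi, an extracellular matrix protein induced by transforming growth factor, stood at 5.22 and 7.68 CPM in WT and at 206 and 179 CPM in ERG CKO (log2 fold change 4.57 ± 0.32 SE, adjusted p = 0.0021). Igf1, a growth factor gene, had no UMI in WT members and stood at 38.6 and 65.4 CPM in ERG CKO, at least 19.6-fold above the level that 3 UMIs over both WT libraries would give. The same bound was 11.9-fold for Nos2, the inducible nitric oxide synthase gene, 13.6-fold for Fndc1 and 15.3-fold for Ildr2. Without mixed cells these bounds were 6.78-fold, 5.06-fold, 6.21-fold and 6.01-fold in the same order. Col28a1, Tbxas1, Gm12840, Pyhin1 and the platelet gene Gp1bb completed the 10 highest, and Col28a1 was not tested and Pyhin1 not called (adjusted p = 0.065) without mixed cells.

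Cd34 and Emcn, which encode surface sialomucins, were the pan-endothelial genes called higher. Emcn stood at 132 and 174 CPM in WT members and at 1301 and 1307 CPM in ERG CKO members (log2 fold change 2.78 ± 0.26 SE, adjusted p = 0.0055), and Cd34 at 110 and 70.7 against 564 and 619 CPM (2.44 ± 0.23, adjusted p = 0.0055). Of the 12 pan-endothelial genes no other was called with all members, and Ptprb was called lower without mixed cells. Fli1, an ETS factor related to ERG, was called higher in both fits, at 122 and 95.2 CPM in WT and 364 and 292 CPM in ERG CKO.

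Genes of sprouting and of the vascular basement membrane were called higher when mixed cells were left out. Of the 13 sprouting genes tested 5 were called higher and 0 lower, Pdgfb, Col4a1, Col4a2, Trp53i11 and Igfbp3, with a median log2 fold change of 0.51 over the list against 0.0041 over all genes. With all members 1 of 16 was called, Pdgfb. Of the 12 matrix genes tested 5 were called higher and 0 lower, Timp3, Col4a1, Col4a2, Hspg2 and Lamc1 (list median 1.05), against 1 of 15, Timp3, with all members. Col4a1 and Col4a2 stand in both lists, so the counts overlap. The share called higher over all genes was 1.85% without mixed cells. Col4a1, a chain of type IV collagen, stood at 449 and 491 CPM in WT and at 1492 and 1047 CPM in ERG CKO without mixed cells (1.37 ± 0.23 SE, adjusted p = 0.0023). The tip cell gene Esm1 did not follow these genes: it stood at 87.8 and 155 CPM in WT and 59.3 and 66.3 CPM in ERG CKO members without mixed cells (-1.06 ± 0.30, adjusted p = 0.058).

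Some gCap genes were called lower in ERG CKO members. Without mixed cells 5 of 10 gCap genes were called lower and 0 higher, Gpihbp1, Tek, Plvap, Adgre5 and Ptprb. Over all genes tested 2.33% were called lower. The median log2 fold change of the list was -0.71, against 0.0041 over all genes. With all members 1 of 10 was called lower, Gpihbp1, while 3 of the 10 had a positive log2 fold change. Gpihbp1 stood at 1653 and 1729 CPM in WT and at 384 and 495 CPM in ERG CKO members without mixed cells (log2 fold change -2.01 ± 0.21 SE, adjusted p = 6.9e-05). Tek, the receptor of Angpt2, stood at 573 and 578 CPM against 200 and 247 CPM (-1.44 ± 0.21, adjusted p = 0.00089), and it was not called with all members (adjusted p = 0.051). Aplnr, the receptor of Apln, stood at 119 and 170 CPM against 115 and 139 CPM in the members (adjusted p = 0.70).

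Genes called in the VEGF and Notch, arterial and venous lists were lower in ERG CKO members. Of the 14 VEGF and Notch genes tested without mixed cells, 4 were called lower, Vegfa, Dll1, Vegfc and Notch1, and 0 higher. The shares over all genes tested were 2.33% lower and 1.85% higher. Vegfa, which was called lower in both fits, stood without mixed cells at 444 and 466 CPM in WT and at 128 and 208 CPM in ERG CKO members (-1.52 ± 0.24 SE, adjusted p = 0.0013). The arterial list had 5 of 9 genes called lower, Gja4, Cxcl12, Sema3g, Eln and Efnb2, and the venous list 5 of 11, Eln, Selp, Vwf, Slc6a2 and Vegfc, all without mixed cells. The lists overlap, with Eln in the arterial and venous ones and Vegfc in the venous and the VEGF and Notch ones. Vwf, the von Willebrand factor gene, stood at 790 and 1166 CPM in WT and 356 and 288 CPM in ERG CKO members. With all members 0 of 10 arterial genes were called. Car8 was called lower of 11 venous genes and Vegfa of 15 VEGF and Notch genes.

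Some antigen presentation genes were called lower in ERG CKO members. Without mixed cells 3 of 6 MHC class II genes were called lower, H2-Ab1, H2-Aa and H2-Eb1, and with all members 2 of 6, H2-Aa and H2-Ab1. Of all genes tested, 4.18% were called in either direction without mixed cells and 3.37% with all members. Of the 16 interferon response genes tested with all members, 1 was called, Ifi27l2a, at 26.1 and 7.68 CPM in WT and 534 and 200 CPM in ERG CKO (4.21 ± 0.61 SE, adjusted p = 0.011), and without mixed cells Isg15 and Iigp1 were also called, lower. Of the 15 immediate early genes, which respond to tissue dissociation, 0 were called with all members, and without mixed cells 5 were called lower, Egr1, Ier2, Ier3, Atf3 and Zfp36, and 1 higher, Nr4a1. Of 9 leukocyte adhesion genes without mixed cells, Cxcl1 was called higher and Selp and Cx3cl1 lower, and of 9 with all members none was called.

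The remaining lists had few called members. Among all genes tested, 3.37% were called with all members and 4.18% without mixed cells. Among the coagulation genes Plat, the tissue plasminogen activator gene, was called higher in both fits, and without mixed cells F2r was called higher and Vwf lower. F2r stood at 15.5 and 3.61 CPM in WT and at 129 and 94.0 CPM in ERG CKO without mixed cells, against 250 and 64.5 and 125 and 104 CPM with all members, where it was not called (adjusted p = 0.55). Of 22 transcription factor genes Fli1 was called with all members, and without mixed cells Sox7 and Klf4 were also called, lower. Of 18 genes of transforming growth factor and BMP signalling Tgfbi was called with all members, and without mixed cells Smad6, an inhibitor of BMP signalling, was called lower. Of the hypoxia list Vegfa was called lower in both fits and Higd1a higher without mixed cells. Of the connexins 2 were tested, and Gja4, an arterial connexin gene, was called lower without mixed cells. None of the mesenchymal programme or cell cycle genes was called by edgeR in either fit. Of the 7 lymphatic genes tested in each fit, Ccl21a was called lower in both. The median log2 fold change of that list was -0.36 with all members. Without mixed cells it was -1.17, with 0 of the 7 positive, against 0.0041 over all genes.

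In marker-negative cells the genotypes were compared in the same way. With all cells 0 of 8175 genes were called by edgeR (0%), with 658 at an unadjusted p under 0.05 and 17 called by DESeq2, and without mixed cells 13 of 7714 (0.169%). Those 13 included Aplnr, at 130 and 121 CPM in WT and 32.6 and 24.5 CPM in ERG CKO (-2.09 ± 0.27 SE, adjusted p = 0.0024). In all gated ECs together 107 of 11349 genes were called (0.943%), and 190 of 10488 without mixed cells (1.81%). These last counts include 5 markers of the rule each, which support nothing here. The order of the classes by number of calls depended on single libraries: with mixed cells left out, 131 and 225 genes were called in marker-negative cells when the first or the second ERG CKO library was dropped, against 3 and 129 in the members, and 103 and 1 against 320 and 296 when a WT library was dropped. The 190 genes of all gated ECs became 41 and 6 when the first or the second WT library was dropped, and 191 and 363 when an ERG CKO library was.

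The difference between the classes was tested as an interaction of class and genotype, which left out the 6 markers. With all cells 123 of 8953 genes were called (1.37%), 43 with a more positive and 80 with a more negative genotype difference in the members, and without mixed cells 138 of 8388 (1.65%), 56 and 82. Both fits called 30 genes, 24.4% of the first set and 21.7% of the second. Emcn (2.02 and 1.35), Cd34 (1.68 and 1.31), Kdr (1.27 and 0.91), Scn7a (2.05 and 1.72) and Aplnr (1.84 and 1.78) had a more positive log2 genotype difference in the members in both fits. Gpihbp1 (-1.13 and -1.72) and Lpl (-1.47 and -1.84) had a more negative one in both. For Aplnr the members themselves hardly differed, as given above. Without mixed cells 4 of the 6 MHC class II genes, 6 of the 11 venous and 4 of the 11 arterial genes had a more negative difference, and with all cells none of these lists had a gene called.

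**Figure D5:**
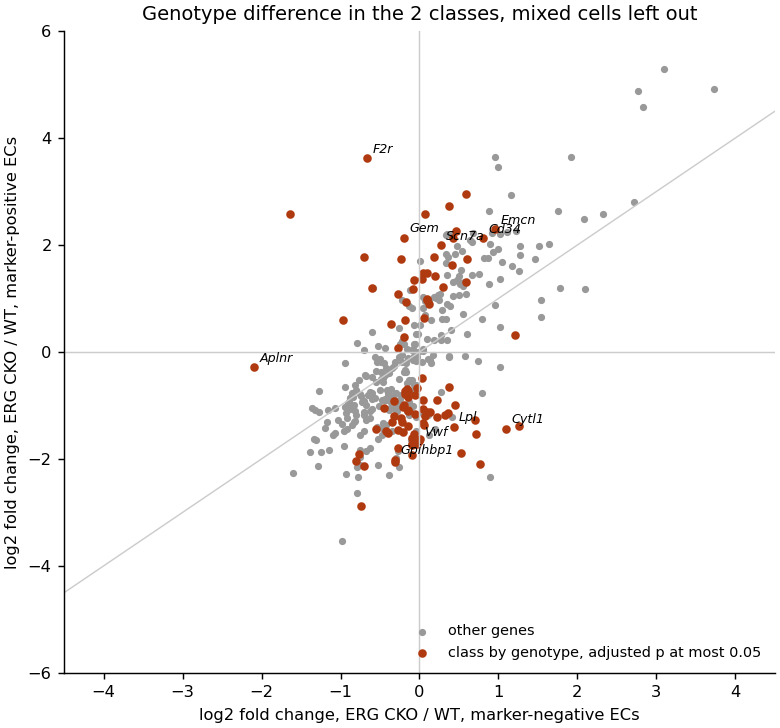
Log2 fold change of ERG CKO over WT in marker-negative ECs (x axis) and in marker-positive ECs (y axis), without mixed cells, for 395 genes of the lists or called in the members, of which 2 lie outside the axes. Each point is a gene, the diagonal marks equal differences and red points passed the interaction test; Gpihbp1 (-2.01 on the y axis) and Lpl lie below the diagonal, and F2r, Gem and Scn7a above it.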

How the data were processed

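Whole-lung cells of 2 WT and 2 ERG CKO mice were measured by 10x single-cell RNA-seq. The authors processed the reads with Cell Ranger 3.1.0 on mm10, per the labels, and deposited raw UMI counts per gene and cell in 1 matrix of 20076 gene symbols, with no normalization. The limits of the study's quality filter are not given in the sources used here, and no cell was removed. The rule and the gene lists were chosen with earlier results of these data known. The aerocyte, endothelial and marker thresholds were applied to the counts; UMIs were summed per library and class. Genotypes were compared with edgeR 4.0.16 (TMM scaling, filterByExpr, quasi-likelihood test, Benjamini-Hochberg adjustment over all genes tested), and class by genotype with the library as a block. DESeq2 1.42.0 was an alternative. Shares are given with Wilson intervals at 95% and without a test, since the markers chose the members. Thinning drew each cell to 2000 UMIs in 20 draws, leaving out shallower cells. Doublets were called with Scrublet in scanpy 1.11.5 and kept. Named genes were the rule and list genes, those with the 15 highest and 10 lowest folds over marker-negative cells, the 10 highest and 10 lowest called genotype differences, and up to 5 interaction genes per direction. The same rule without mixed cells, and the genes described by marker number, were chosen after the values were seen. Simulated counts were used to test the fits. In the simulated comparison of members, 42.4% of genes changed 2-fold and 96.9% of those changed by a log2 of 2 were recovered over 7792 genes. In the simulated interaction the values were 7.14% and 54.5% over 8542 genes. The simulation had a fixed spread between replicates and no mixed cells, so these rates do not describe the deposited counts. Some items are not reported here.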

Additional observations from a re-analysis of the deposited data

Results flagged for a closer look

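In the fit with all cells, the genotype difference in the members differed from that in marker-negative cells, by the interaction test, for Scn7a (2.05 on the log2 scale), Malat1 (0.70), Plpp1 (1.39), Emcn (2.02) and Cxcl9 (11.26), each more positive in the members. The value of Cxcl9 rests on WT libraries without a UMI and on 203 and 18.2 CPM in the ERG CKO members, so it depends on the prior count and is no bound. Lyz2 (-5.03), Slc34a2 (-7.55), Cyp2f2 (-10.53), Scd1 (-5.18) and Cxcl15 (-8.23) had a more negative difference in the members, and in the WT members Lyz2 stood at 3029 and 2736 CPM against 72.3 and 46.9 CPM without mixed cells. Without mixed cells the same test put forward Scn7a (1.72), Col4a1 (1.34), Gem (2.30), F2r (4.31) and Emcn (1.35) as more positive and Gpihbp1 (-1.72), Vwf (-1.64), Lpl (-1.84), Stmn2 (-1.78) and Cytl1 (-2.56) as more negative. Scn7a and Emcn were named by both fits.

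The markers were also detected in cells that the rule left out. Among ECs with at least 3 aerocyte genes, at least 3 of the 6 markers were detected in 12.7% and 5.77% of the WT cells (10 of 79 and 6 of 104) and in 27.5% and 20.8% of the ERG CKO cells (38 of 138 and 27 of 130). Apln is a gene of healthy aerocytes, and no comparison of the report uses these cells.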

How the results depend on the processing

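The share of gated ECs with at least 2 markers was higher in ERG CKO under all 20 alternatives, by 0.0951 to 21.7 percentage points, and at 1 marker the libraries overlapped. Leaving out 1 library gave 13.1 to 18.8 points.

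The number of genes called in the members moved from 274 to 79 with at least 3 markers, 64 when mixed cells and cells under 2000 UMIs were also left out, 134 after thinning, 1015 without a filter, and 114 to 657 without 1 library. Without mixed cells it moved from 278 to 118 with DESeq2 and to between 3 and 320 without 1 library. In marker-negative cells the count moved from 0 to 17 with DESeq2, 2 without lymphatic-marker cells, 13 without mixed cells, 8 also without cells under 2000 UMIs, 254 without a filter, and 0 to 99 without 1 library. In all gated ECs it moved from 107 to 234 with DESeq2, 27 without lymphatic-marker cells, 190 without mixed cells, 213 also without cells under 2000 UMIs, 192 without a filter, and 189 to 273 without 1 library. For the interaction it moved from 123 to 32 with DESeq2, 51 without lymphatic-marker cells, 73 without cells holding Prox1 or Mmrn1, 543 without a filter, and 94 to 237 without 1 library. The number of genes at least 2-fold apart in every library moved from 8 to 20 with CPM plus 5, 5 with CPM plus 50, 3 after thinning, 16 with at least 3 markers, 1 without lymphatic-marker cells, 4 without mixed cells, 3 also without cells under 2000 UMIs, 20 without Pcdh17 in the rule, and 12 to 18 without 1 library. The cause was not tested.

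With the replicate number as a block (replicate block), 509 genes were called in the members, 506 without mixed cells, 4 in marker-negative cells and 520 in all gated ECs. The labels do not say that a number marks a shared litter or day, and 2 pairs are too few to check it. The interaction already holds the library as its block.

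Erg in the members changed sign, never called, to -0.56 with at least 3 markers and mixed and shallow cells left out, -0.15 without lymphatic-marker cells, -0.22 without mixed and shallow cells, -0.21 without mixed cells and -0.071 without ERG CKO replicate 1 (range without 1 library -0.071 to 0.34). Scgb1a1 reversed to 1.64 (adjusted p = 0.71) with at least 3 markers and mixed and shallow cells left out.

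The number of cells limits the WT side: 62 and 66 members, of which 10 and 5 held at least 3 markers.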
